A study of Homo sapiens with 24 samples.

Results

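The genes described here are 38 of the 25365 gene rows of the deposited expression table. They were chosen by name as known targets of the transcription factor ATF4, as enzymes of serine synthesis and one-carbon metabolism, and as genes of the endoplasmic reticulum (ER) stress response. They form an ATF4 arm of 21 genes, an ER chaperone arm of 13 genes and a set of 4 stress sensors and transducers. In each cell line 36 of the 38 reached an FPKM (a read level scaled for transcript length and sequencing depth) of 1 in at least 3 of 12 libraries and were tested. The other two, the mitochondrial folate enzyme ALDH1L2 and the ER sensor ERN1, did not reach it in either line. ALDH1L2 stayed at or below 0.894 FPKM and ERN1 at or below 0.847 FPKM in every library.

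The integrated stress response begins when a kinase phosphorylates the translation factor eIF2, which slows protein synthesis in general and raises translation of ATF4. ATF4 then switches on genes for amino acid supply, among them those that make serine and asparagine, together with genes such as DDIT3 and TRIB3 that can limit the response or end in cell death. The unfolded protein response starts from sensors in the ER membrane: EIF2AK3 (PERK) feeds into eIF2 and ATF4, while ATF6 and ERN1 with its target XBP1 drive the genes for ER chaperones and for disposal of misfolded proteins.

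The study asked how the coactivator YAP takes part when EGFR-mutant lung cancer cells are given EGFR and MEK inhibitors together, and RNA was sequenced from 8 groups of 3 dishes each. OT denotes 100 nM osimertinib, an EGFR inhibitor, given with 30 nM trametinib, a MEK inhibitor, for 24 h. DMSO is the solvent, given for the same time. Both lines, HCC4006 and PC9, carry an activating EGFR mutation as background. In HCC4006 the groups were YAP1 knockout (KO) cells with OT, YAP1 KO cells with DMSO, CTRL cells with OT and CTRL cells with DMSO, and PC9 had the same 4 groups. All cells grew in RPMI-1640 with serum. The labels call the cells without the knockout only CTRL and do not say how they were made. They also do not state whether the knockout cells are 1 clone or a pool, nor the guide used. Nothing states that the 3 dishes of a group came from separate cultures, so p-values measure the spread between dishes, which may be technical.

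The labels were checked first. YAP1 averaged 4.24 ± 0.344 FPKM in HCC4006 YAP1 KO cells with DMSO, against 18.2 ± 1.62 FPKM in CTRL cells with DMSO, and 6.13 ± 0.190 FPKM in YAP1 KO cells with OT, against 15.5 ± 1.51 FPKM in CTRL cells with OT. In PC9 the averages were 12.1 ± 0.398 FPKM in YAP1 KO cells with DMSO, against 42.9 ± 0.415 FPKM in CTRL cells with DMSO, and 11.0 ± 0.841 FPKM in YAP1 KO cells with OT, against 34.2 ± 0.371 FPKM in CTRL cells with OT. Values after ± are standard deviations over 3 dishes throughout. The epithelial marker EPCAM lay between 240.0 and 335 FPKM in HCC4006 and between 263 and 375 FPKM in PC9, while the leukocyte marker PTPRC did not exceed 0.0516 FPKM in any library. Not all markers of other cell types were this low. The summed fibroblast markers (COL1A1, COL1A2 and PDGFRB) lay between 7.23 and 7.65 FPKM in HCC4006 YAP1 KO cells with OT, 2.37 and 2.61 FPKM in YAP1 KO cells with DMSO, 19 and 20.3 FPKM in CTRL cells with OT, and 3.38 and 3.55 FPKM in CTRL cells with DMSO, where COL1A2 reached 16 FPKM with OT, and at most 2.62 FPKM in PC9. PDGFRB stayed at or below 0.0323 FPKM in HCC4006. The leukocyte marker CD14 ran from 0.452 to 2.43 FPKM in HCC4006, with its lowest dish under OT at 1.18 FPKM and its highest under DMSO at 1.08 FPKM, and to at most 0.362 FPKM in PC9. The 3 endothelial markers stayed below 1 FPKM each. The fibroblast sum and CD14 move with OT in HCC4006, and their part in the results was not tested. FPKM sums ranged from 507120 to 660459 per library and relative depth from 0.945 to 1.42. The lowest sum and the highest relative depth belonged to the same library, HCC4006 CTRL OT replicate 1. The larger moves without it in counts and arm differences are given below. These are bulk samples, in which fewer cells of a kind and less RNA per cell cannot be told apart. Of the 38 genes, 22 overlap another annotated gene, 19 of them on the opposite strand, and 6 (ATF4, PSAT1, PSPH, MTHFD2, ASNS and XBP1) have named pseudogenes. The sources used here do not give the strand setting of the counting, so the levels of these genes are uncertain to that extent.

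In CTRL cells with DMSO the lines started from different levels, in both directions. PHGDH, the enzyme of the first step of serine synthesis, averaged 19.7 ± 0.150 FPKM in HCC4006, against 107 ± 2.18 FPKM in PC9 (log2 change -2.38, SE 0.0342, adjusted p = 8.8e-23). PSAT1, the aminotransferase of the next step, averaged 28.1 ± 1.04 FPKM in HCC4006, against 72.3 ± 1.44 FPKM in PC9 (log2 change -1.34, SE 0.0457, adjusted p = 1.34e-16). Both enzymes were lower in HCC4006, and no library of one line overlapped the other. PSPH, the phosphatase of the last step, differed less, at 33.4 ± 1.18 FPKM in HCC4006 and 36.7 ± 0.581 FPKM in PC9 (log2 change -0.13, SE 0.0407, adjusted p = 0.00504). Several stress outputs ran the other way. The lipoprotein receptor VLDLR averaged 15.4 ± 0.376 FPKM in HCC4006, against 1.34 ± 0.0979 FPKM in PC9, the secreted glycoprotein STC2 40.7 ± 0.536 against 6.92 ± 0.441 FPKM, and the small stress-induced nuclear protein NUPR1 23.3 ± 2.25 against 3.97 ± 0.250 FPKM. All 3 were higher in HCC4006, with adjusted p of 6.97e-21, 1.75e-20 and 3.1e-13. Of the measured ATF4 arm, 9 of 20 genes were higher in HCC4006 and 9 lower, and of the ER chaperone arm 4 of 13 were higher and 3 lower. With equal FPKM sums the ER chaperone split became 4 higher and 6 lower. The 27 of 36 members called are no larger a share than the 82.1% called of the 11845 genes tested in both lines, 37.7% higher and 44.4% lower. The abundant chaperone HSPA5 (BiP) did not pass the test between the lines: it averaged 141 ± 1.38 FPKM in HCC4006 and 136 ± 4.75 FPKM in PC9, a log2 difference with an interval of -0.063 to 0.16 at 95% and adjusted p = 0.405 by limma. Throughout, "called" means an adjusted p below 0.05 by limma on log2(FPKM + 1), with the Benjamini-Hochberg method over all genes tested, and log2 changes are on that scale.

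In the ATF4 arm 3 promoters carry the letters of the element that ATF4 binds together with a C/EBP partner, and all 3 are shown. With OT in HCC4006 CTRL cells CHAC1 and ASNS rose and MTHFD1L fell. In PC9 CTRL cells all 3 fell, CHAC1 from a level near the filter limit of 1 FPKM. The letters searched were TGATGNAA on both strands, in a window from 250 bases before to 50 after each RefSeq start (GRCh38.p14), and capitals mark the match. Coordinates are chr15:40953237-40953294 on the plus strand for CHAC1, chr7:97872444-97872501 on the minus strand for ASNS and chr6:150866332-150866389 on the plus strand for MTHFD1L.
CHAC1: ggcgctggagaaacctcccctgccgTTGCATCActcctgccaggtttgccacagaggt
ASNS: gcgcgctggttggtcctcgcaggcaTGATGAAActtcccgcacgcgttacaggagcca
MTHFD1L: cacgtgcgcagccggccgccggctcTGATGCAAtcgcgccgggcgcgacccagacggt
The CHAC1 match reads on the reverse strand. Of the 17 ATF4 arm genes with a promoter window, these 3 held the letters, and so did 1 of 13 ER chaperone genes (HERPUD1), against 4.46% of the 27305 genes with a window. No window was found for NUPR1, PSPH, SHMT2 and ALDH1L2. A match is a description of the letters and not a shown binding site.

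The ER chaperone promoters carry other letters. The ER stress element was searched as CCAAT and CCACG with 9 bases between them, and its shorter relative, ER stress element II, as ATTGG and CCACG with 1 base between them, again on both strands. The first was held by 5 of 13 ER chaperone genes (HSPA5, HSP90B1, CALR, PDIA6 and CRELD2) and by XBP1 among the sensors, against 0.0916% of all genes with a window. The second was held by 3 of 13 (SDF2L1, HYOU1 and HERPUD1), against 0.0696% of all genes, and 0 of the 17 ATF4 arm genes held either. The letters TGACGTGG, which XBP1 and ATF6 can bind, were found in HYOU1 alone among the members, where they overlap an ER stress element II, and in 0.927% of all genes. SDF2L1, HERPUD1 and PDIA6 are shown because in HCC4006 SDF2L1 and PDIA6 gave the lowest OT changes of the arm and HERPUD1 the highest. In PC9 the lowest was that of EDEM1. They lie at chr22:21642089-21642149 (plus), chr16:56931941-56932060 (plus) and chr2:10812828-10812896 (minus).
SDF2L1: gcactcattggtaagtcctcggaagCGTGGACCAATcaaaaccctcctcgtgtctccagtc
HERPUD1: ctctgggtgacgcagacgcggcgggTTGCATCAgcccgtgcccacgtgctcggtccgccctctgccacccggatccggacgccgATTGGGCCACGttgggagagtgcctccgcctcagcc
PDIA6: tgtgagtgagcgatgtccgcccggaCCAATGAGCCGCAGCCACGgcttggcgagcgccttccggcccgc
HERPUD1 has both kinds of match, first the ATF4 letters read on the reverse strand and then ER stress element II.

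In HCC4006 CTRL cells OT raised most of the ATF4 arm and lowered most of the ER chaperones. Of 20 measured ATF4 arm genes 13 rose and 5 fell, while of 13 ER chaperone genes 3 rose and 7 fell, and all 3 measured sensors rose. The 31 of 36 members called are near the 81.6% of all 13113 genes that were called in this comparison, 45.0% higher and 36.6% lower, so the count alone is not a result about these genes. The direction divided the arms. The median log2 change was 0.52 in the ATF4 arm and -0.29 in the ER chaperone arm, against 0.087 over all genes, a difference between arms of 0.81. Without CTRL OT replicate 1 the difference was 0.76. CTH reached 1 FPKM in OT libraries alone (4 of 6 with OT, 0 of 6 with DMSO), so it had to differ, and without it 12 of 19 ATF4 arm genes rose and 5 fell, with a median of 0.46. Scaling moved the split. With equal FPKM sums the all-gene median was 0.27, the ATF4 arm had 14 higher and 2 lower with a median of 0.74, and the ER chaperone arm 4 higher and 4 lower with a median of -0.068. With median-of-ratios scaling the all-gene median was -0.017, the ATF4 arm had 12 higher and 7 lower with a median of 0.40, and the ER chaperone arm 3 higher and 9 lower with a median of -0.41. No member was called in the opposite direction under either scaling, and the ATF4 arm median stayed above the all-gene median and the ER chaperone median below it.

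Among the regulators of the ATF4 arm, 5 of 7 rose and 1 fell. NUPR1 had 475, 613 and 623 FPKM in the 3 OT dishes, against 23.4, 25.5 and 21.01 FPKM in the 3 DMSO dishes. Every OT dish lay above every DMSO dish, and the change was the largest of any member (log2 change 4.55, SE 0.112, adjusted p = 3.92e-12). DDIT3, the transcription factor CHOP that is linked to cell death under prolonged stress, had 49.5, 60.3 and 58.1 FPKM with OT, against 24.2, 25.3 and 21.04 FPKM with DMSO (log2 change 1.22, SE 0.0848, adjusted p = 4.3e-08). All OT dishes were higher than all DMSO dishes. ATF4 itself had 314, 394 and 373 FPKM with OT, against 239.8, 245 and 235 FPKM with DMSO (log2 change 0.58, SE 0.0689, adjusted p = 6.52e-06), again without overlap, although replicate 1 was the lowest of the OT dishes. PPP1R15A, which brings a phosphatase to eIF2 and so ends the response, averaged 22.3 ± 1.69 FPKM with OT and 13.7 ± 0.876 FPKM with DMSO, and TRIB3, a pseudokinase that binds ATF4, averaged 61.8 ± 3.12 and 44.6 ± 0.299 FPKM in the same order. Both rose, with adjusted p of 8.57e-07 and 7.98e-07 by limma. ATF5, a relative of ATF4, fell to 4.58, 4.65 and 5.78 FPKM with OT, against 8.38, 8.92 and 8.21 FPKM with DMSO (log2 change -0.67, SE 0.0782, adjusted p = 5.65e-06). CEBPB, a C/EBP factor that pairs with ATF4, did not pass, at 13.4 ± 0.853 FPKM with OT and 14.3 ± 0.828 FPKM with DMSO (adjusted p = 0.213).

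Of the measured amino acid and folate enzymes, 6 of 9 rose and 2 fell. PCK2, the mitochondrial enzyme that makes phosphoenolpyruvate from oxaloacetate, had 31.0, 35.6 and 33.6 FPKM with OT, against 6.05, 5.93 and 7.01 FPKM with DMSO (log2 change 2.23, SE 0.0681, adjusted p = 2.22e-11). PHGDH had 46.9, 50.3 and 49.9 FPKM with OT, against 19.5, 19.8 and 19.6 FPKM with DMSO (log2 change 1.27, SE 0.0395, adjusted p = 2.53e-11). ASNS, the asparagine synthetase whose promoter letters are shown above, had 62.5, 76.9 and 79.1 FPKM with OT, against 32.4, 32.6 and 32.2 FPKM with DMSO (log2 change 1.14, SE 0.073, adjusted p = 2e-08). In all 3 genes the OT dishes lay above the DMSO dishes without overlap. PSAT1 moved far less, with 31.8, 33.4 and 35.5 FPKM in OT dishes, against 26.9, 28.6 and 28.7 FPKM in DMSO dishes (log2 change 0.25, SE 0.0456, adjusted p = 0.000262). The last enzyme of serine synthesis, PSPH, fell to 26.8 ± 1.07 FPKM with OT, against 33.4 ± 1.18 FPKM with DMSO (adjusted p = 3.42e-05), so the steps of the pathway moved in different directions. The mitochondrial folate enzymes also differed among themselves. MTHFD2 averaged 66.2 ± 3.82 FPKM with OT and 56.7 ± 1.16 FPKM with DMSO (log2 change 0.22, adjusted p = 0.00117). MTHFD1L, which makes formate and also carries the ATF4 letters, fell to 18.6, 20.8 and 18.9 FPKM with OT, against 28.97, 30.4 and 30.1 FPKM with DMSO (log2 change -0.59, SE 0.0502, adjusted p = 2.67e-07). SHMT2, which turns serine into glycine, averaged 50.8 ± 0.881 FPKM with OT and 51.7 ± 2.0 FPKM with DMSO and did not pass (adjusted p = 0.581). CTH, which makes cysteine from cystathionine, was low throughout, at 1.79, 1.95 and 2.53 FPKM with OT and 0.471, 0.680 and 0.680 FPKM with DMSO.

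Of the other outputs, 2 rose and 2 fell. CHAC1, an enzyme that degrades glutathione, had 23.2, 24.4 and 20.9 FPKM with OT, against 3.71, 2.5 and 1.81 FPKM with DMSO (log2 change 2.73, SE 0.165, adjusted p = 1.14e-08). SESN2, an inhibitor of mTORC1 signalling, had 6.26, 5.64 and 5.23 FPKM with OT, against 2.01, 2.02 and 1.69 FPKM with DMSO (log2 change 1.21, SE 0.0754, adjusted p = 1.55e-08). Neither gene's groups overlapped. STC2 averaged 32.3 ± 2.12 FPKM with OT and 40.7 ± 0.536 FPKM with DMSO (log2 change -0.33, SE 0.0454, adjusted p = 2.75e-05), but with equal FPKM sums its log2 change was -0.11 with adjusted p = 0.217. VLDLR averaged 13.3 ± 0.284 FPKM with OT and 15.4 ± 0.376 FPKM with DMSO (log2 change -0.20, adjusted p = 0.000894).

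**Figure D1:**
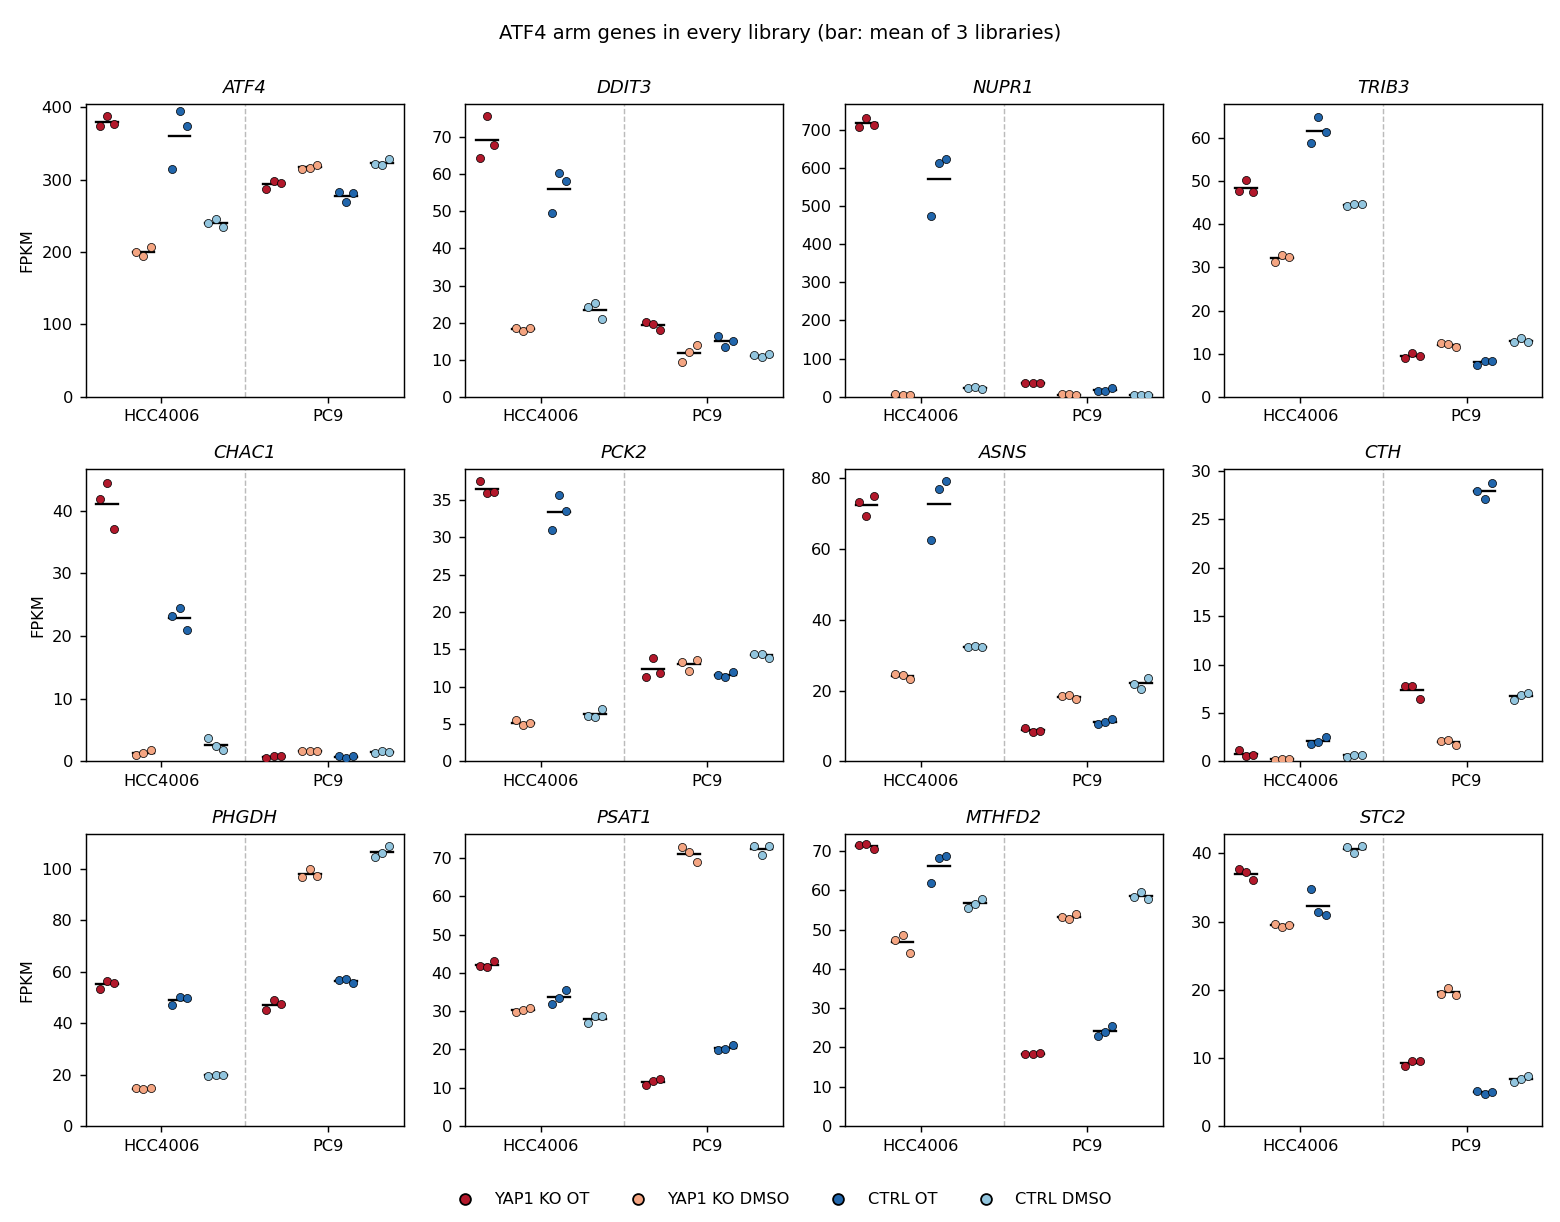
FPKM of 12 ATF4 arm members in every dish of the 8 groups on linear axes from 0, with HCC4006 to the left of PC9 and bars at the group means. NUPR1 lay at a mean of 570.3 FPKM in HCC4006 CTRL cells with OT and 23.3 FPKM with DMSO, and PSAT1 at 20.3 FPKM in PC9 CTRL cells with OT and 72.3 FPKM with DMSO.

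The 3 measured sensors and transducers rose together in HCC4006 CTRL cells. XBP1, the factor spliced by ERN1, had 62.6, 68.4 and 66.4 FPKM with OT, against 40.5, 40.6 and 43.6 FPKM with DMSO (log2 change 0.65, SE 0.0443, adjusted p = 3.48e-08). ATF6, the sensor that is cut in the Golgi to release a transcription factor, averaged 11.5 ± 0.318 FPKM with OT and 7.05 ± 0.0970 FPKM with DMSO, and EIF2AK3 averaged 6.78 ± 0.259 and 4.14 ± 0.405 FPKM in the same order. Their log2 changes were 0.64 and 0.60, with adjusted p of 5.77e-08 and 3.88e-06 by limma. Splicing of XBP1 cannot be read from a gene-level FPKM.

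Among the ER chaperones the co-chaperone SDF2L1 gave the lowest value. It had 7.14, 8.08 and 9.81 FPKM with OT, against 25.7, 25.6 and 26.1 FPKM with DMSO (log2 change -1.53, SE 0.125, adjusted p = 1.96e-07), and all OT dishes lay below all DMSO dishes. PDIA6, a disulfide isomerase, fell to 68.7, 80.0 and 79.4 FPKM with OT, against 132, 139.7 and 137 FPKM with DMSO (log2 change -0.84, SE 0.056, adjusted p = 2.96e-08), and MANF, a secreted ER stress protein, to 52.4 ± 6.67 FPKM with OT, against 73.0 ± 3.85 FPKM with DMSO (log2 change -0.48, SE 0.0834, adjusted p = 0.000189). The glycoprotein chaperone CALR, the HSP90 paralog HSP90B1, the isomerase PDIA4 and the mannosidase-like disposal factor EDEM1 fell by 0.31, 0.32, 0.29 and 0.32 on the log2 scale. BiP went the other way: HSPA5 had 156, 191 and 192 FPKM with OT, against 139, 141 and 142 FPKM with DMSO (log2 change 0.34, SE 0.0666, adjusted p = 0.000432), with the OT dishes higher. Its J-domain partner DNAJB9 averaged 9.82 ± 1.01 FPKM with OT and 7.62 ± 0.623 FPKM with DMSO and rose (adjusted p = 0.00152). HERPUD1, an organiser of ER-associated degradation, had 35.9, 41.1 and 39.4 FPKM with OT, against 18.8, 19.9 and 17.7 FPKM with DMSO (log2 change 1.01, SE 0.0546, adjusted p = 4.09e-09), the highest change of the arm and without overlap. HYOU1, the exchange factor of BiP, the co-chaperone DNAJC3 and the ER-resident CRELD2 did not pass, with adjusted p of 0.116, 0.583 and 0.227 by limma. Their log2 changes were 0.10, -0.042 and -0.12. The promoter letters did not divide the arm by direction: of the genes with an ER stress element, HSPA5 rose while CALR, HSP90B1 and PDIA6 fell, and of those with element II HERPUD1 rose while SDF2L1 fell.

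**Figure D2:**
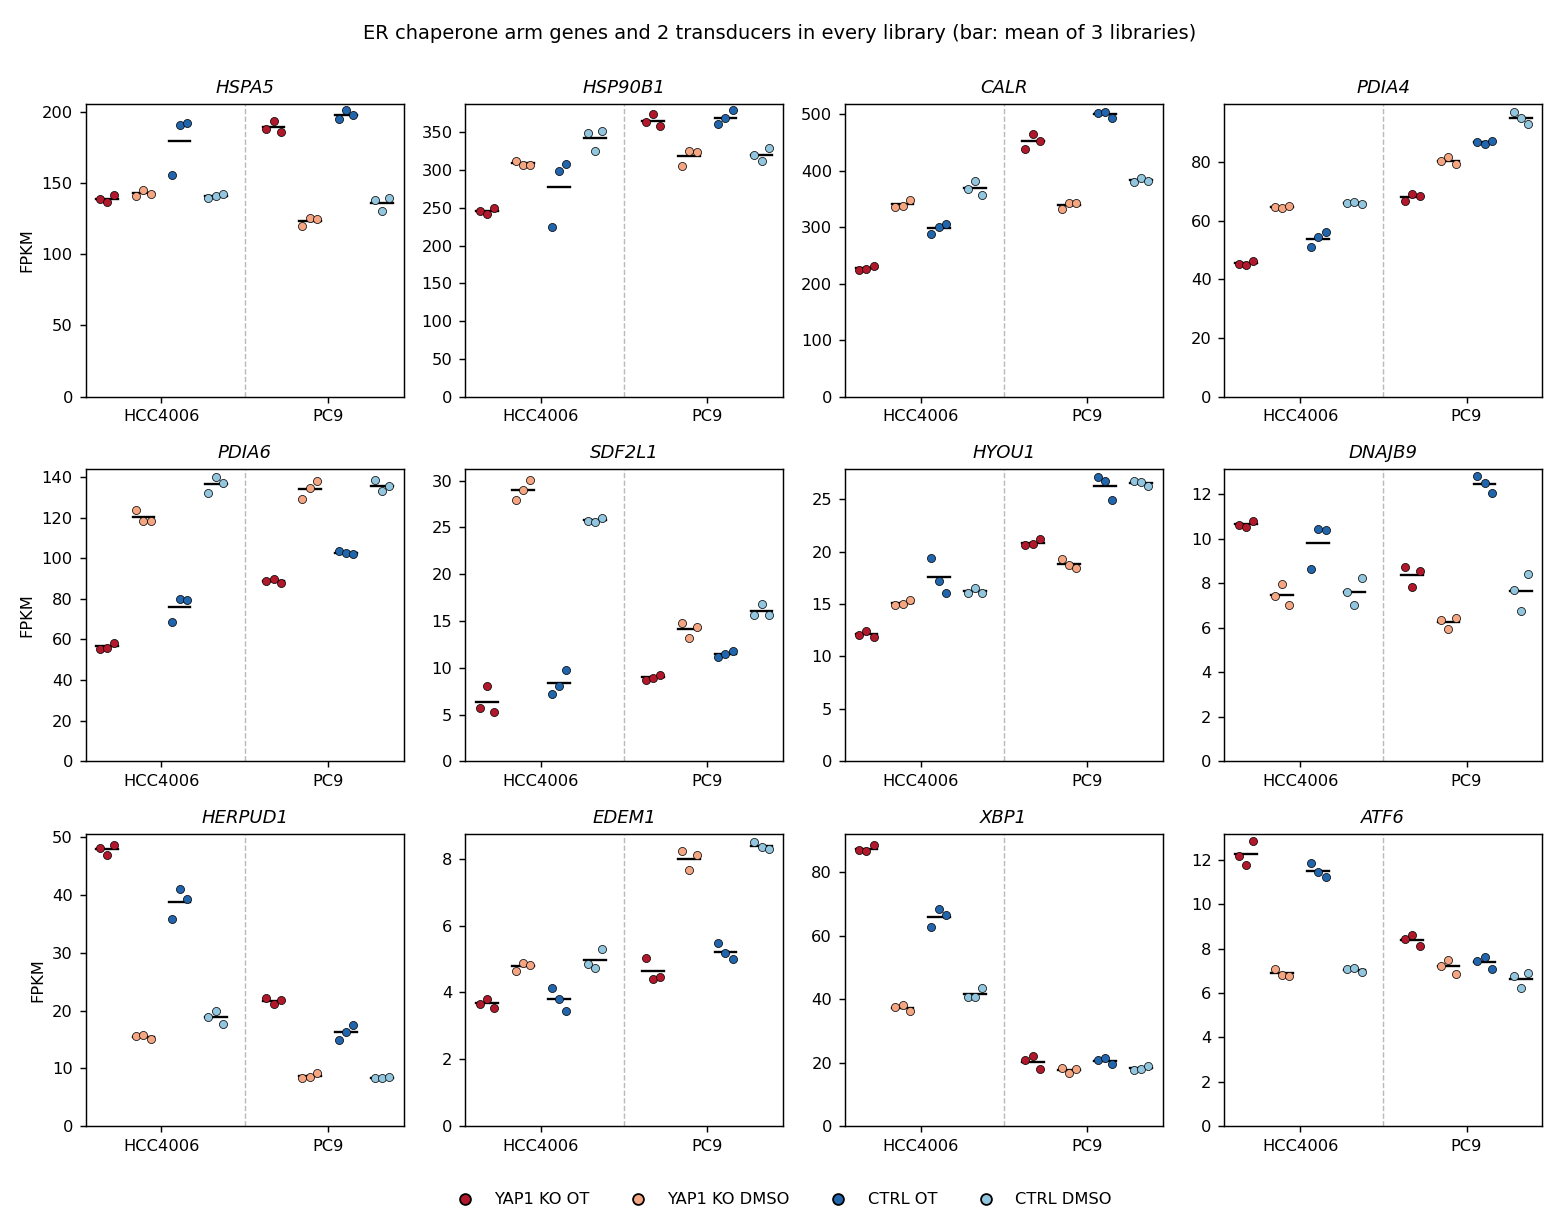
FPKM of 10 ER chaperone arm members, XBP1 and ATF6 in every dish of the 8 groups on linear axes from 0, with HCC4006 to the left of PC9 and bars at the group means. SDF2L1 lay at a mean of 8.35 FPKM in HCC4006 CTRL cells with OT and 25.8 FPKM with DMSO, and HERPUD1 at 38.8 and 18.8 FPKM in the same groups.

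In PC9 CTRL cells the same treatment lowered most of the ATF4 arm. Of 20 measured ATF4 arm genes 5 rose and 15 fell, so that every one was called, while of 13 ER chaperone genes 5 rose and 5 fell. All 3 measured sensors rose. The 33 of 36 members called stand beside 73.0% of all 12685 genes tested, 32.0% higher and 40.9% lower. The median log2 change was -0.35 in the ATF4 arm and -0.015 in the ER chaperone arm, against -0.045 over all genes, a difference between arms of -0.34. With equal FPKM sums, and likewise with median-of-ratios scaling, the ATF4 arm had 5 higher and 14 lower and the ER chaperone arm 6 and 4. The ER chaperone medians were then 0.043 and 0.039, against 0.0061 and 0.0025 over all genes. CHAC1 reached 1 FPKM in DMSO libraries alone (0 of 6 with OT, 6 of 6 with DMSO), so it had to differ, and without it 5 of 19 ATF4 arm genes rose and 14 fell, with a median of -0.30.

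All 3 enzymes of serine synthesis fell in PC9. PSAT1 fell to 19.8, 20.01 and 21.1 FPKM with OT, against 73.2, 70.7 and 73.1 FPKM with DMSO (log2 change -1.78, SE 0.0459, adjusted p = 1.23e-11). PHGDH fell to 56.9, 57.0 and 55.5 FPKM with OT, against 105, 106 and 109 FPKM with DMSO (log2 change -0.91, SE 0.0314, adjusted p = 1.42e-10), and PSPH to 21.9, 23.6 and 22.2 FPKM with OT, against 37.1, 37.0 and 36.0 FPKM with DMSO (log2 change -0.68, SE 0.0387, adjusted p = 1.09e-08). Each was lower in every OT dish than in any DMSO dish. The mitochondrial folate enzyme MTHFD2 fell to 23.0, 24.00 and 25.3 FPKM with OT, against 58.4, 59.5 and 57.9 FPKM with DMSO (log2 change -1.25, SE 0.0331, adjusted p = 1.51e-11). ASNS fell to 10.6, 11.0 and 11.9 FPKM with OT, against 21.9, 20.5 and 23.7 FPKM with DMSO (log2 change -0.92, SE 0.0597, adjusted p = 3.66e-08). SHMT2, MTHFD1L and PCK2 also fell, by 0.47, 0.64 and 0.27 on the log2 scale. Of the 9 measured enzymes CTH alone rose, with 27.9, 27.1 and 28.8 FPKM in OT dishes, against 6.31, 6.83 and 7.11 FPKM in DMSO dishes (log2 change 1.90, SE 0.0753, adjusted p = 4.17e-10).

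Regulators of the ATF4 arm divided in PC9, with 3 of 7 rising and 4 falling. ATF4 fell to 282, 269 and 281 FPKM with OT, against 322, 319.8 and 329 FPKM with DMSO (log2 change -0.22, SE 0.0246, adjusted p = 5.17e-06), and TRIB3 to 7.41, 8.23 and 8.22 FPKM with OT, against 12.6, 13.6 and 12.7 FPKM with DMSO (log2 change -0.64, SE 0.0545, adjusted p = 4.07e-07). NUPR1 rose, with 15.7, 15.3 and 22.8 FPKM in OT dishes, against 3.78, 3.88 and 4.25 FPKM in DMSO dishes (log2 change 1.91, SE 0.12, adjusted p = 2.62e-08). PPP1R15A had 29.5, 27.3 and 24.7 FPKM with OT, against 12.2, 13.2 and 12.7 FPKM with DMSO (log2 change 1.03, SE 0.0531, adjusted p = 4.11e-09), and DDIT3 had 16.3, 13.5 and 15.0 FPKM with OT, against 11.1, 10.6 and 11.4 FPKM with DMSO (log2 change 0.40, SE 0.108, adjusted p = 0.00526). In none of these 5 genes did OT and DMSO dishes overlap. ATF5 and CEBPB fell by 0.20 and 0.23 on the log2 scale. Of the outputs VLDLR rose to a mean of 3.92 ± 0.178 FPKM with OT, against 1.34 ± 0.0979 FPKM with DMSO (log2 change 1.07, SE 0.0671, adjusted p = 2.51e-08), whereas STC2 averaged 4.99 ± 0.254 and 6.92 ± 0.441 FPKM in the same order and fell (adjusted p = 2.01e-05). SESN2 and CHAC1 lay near the filter limit, with OT means of 0.950 and 0.769 FPKM and DMSO means of 1.40 and 1.50 FPKM.

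The ER chaperone arm of PC9 was divided, with as many genes higher as lower without further scaling. HSPA5 had 195, 201 and 198 FPKM with OT, against 138, 131 and 139 FPKM with DMSO (log2 change 0.54, SE 0.03, adjusted p = 8.78e-09). HERPUD1 had 14.9, 16.2 and 17.6 FPKM with OT, against 8.25, 8.25 and 8.45 FPKM with DMSO (log2 change 0.88, SE 0.0536, adjusted p = 1.92e-08), and DNAJB9 had 12.8, 12.5 and 12.1 FPKM with OT, against 7.71, 6.75 and 8.41 FPKM with DMSO (log2 change 0.65, SE 0.0661, adjusted p = 2.37e-06). These 3 were higher in every OT dish. CALR and HSP90B1 also rose, by 0.38 and 0.20 on the log2 scale. EDEM1, SDF2L1, PDIA6, CRELD2 and PDIA4 fell, by between 0.13 (PDIA4) and 0.59 (EDEM1). MANF, HYOU1 and DNAJC3 did not pass, with log2 changes of 0.10, -0.015 and -0.028. XBP1 had 20.8, 21.4 and 19.5 FPKM with OT, against 17.6, 18.0 and 18.9 FPKM with DMSO (log2 change 0.17, SE 0.0644, adjusted p = 0.03), and its call was lost without PC9 CTRL DMSO replicate 1 or 2 or PC9 CTRL OT replicate 1 or 2, with adjusted p between 0.071 and 0.101 by limma. ATF6 and EIF2AK3 rose by 0.14 and 0.19 on the log2 scale.

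The OT response itself was then compared between the lines, as HCC4006 minus PC9 in CTRL cells, in 1 fit of all 24 libraries. Of the ATF4 arm 13 of 20 measured genes had the higher response in HCC4006 and 4 the lower, and of the ER chaperone arm 1 of 13 had the higher and 8 the lower. All 3 measured sensors had the higher response in HCC4006. The 29 of 36 members called stand beside 65.2% of all 11845 genes tested, 38.1% higher and 27.1% lower. The median log2 difference was 0.81 in the ATF4 arm and -0.20 in the ER chaperone arm, against 0.083 over all genes, so the arms lay 1.00 apart. With equal FPKM sums the all-gene median was 0.22 and the ER chaperone arm had 4 higher and 5 lower, and with median-of-ratios scaling the all-gene median was -0.048 and that arm had 8 lower.

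By role, 7 of 9 enzymes, 4 of 7 regulators and 2 of 4 other outputs had the higher response in HCC4006. The highest value was that of CHAC1, with an OT change of 2.73 in HCC4006 and -0.50 in PC9, a difference of 3.23 (SE 0.201, adjusted p = 1.82e-11). CHAC1 passed the PC9 filter through DMSO libraries alone, so the direction of its PC9 change was fixed by the filter. NUPR1 rose in both lines, and its change was larger in HCC4006 by 2.64 (SE 0.174, adjusted p = 4.86e-11). PCK2, PHGDH and ASNS rose in HCC4006 and fell in PC9, and their differences were 2.5, 2.18 and 2.05, with adjusted p of 8.7e-15, 3.88e-18 and 2.49e-13. PHGDH, which started at the lower level in HCC4006, ended near the PC9 level under OT, with means of 49.0 FPKM in HCC4006 CTRL cells and 56.4 FPKM in PC9 CTRL cells. At the other end, VLDLR had a change lower by 1.27 in HCC4006, SDF2L1 by 1.08, CTH by 0.97, CALR by 0.69 and MANF by 0.57. Their adjusted p-values were 7.24e-12, 1.22e-06, 1.31e-05, 3.91e-11 and 5.1e-05. The CTH difference depended on the pseudocount, since CTH reached at most 2.53 FPKM in HCC4006: with a pseudocount of 0.1 it was -0.41 (adjusted p = 0.191) and with 0.01 it was -0.29 (adjusted p = 0.419). HERPUD1 rose in both lines, and the difference in its response was 0.12 with an interval of -0.040 to 0.28 at 95% (adjusted p = 0.174). MTHFD1L fell in both, with a difference of 0.045 and an interval of -0.11 to 0.20.

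**Figure D3:**
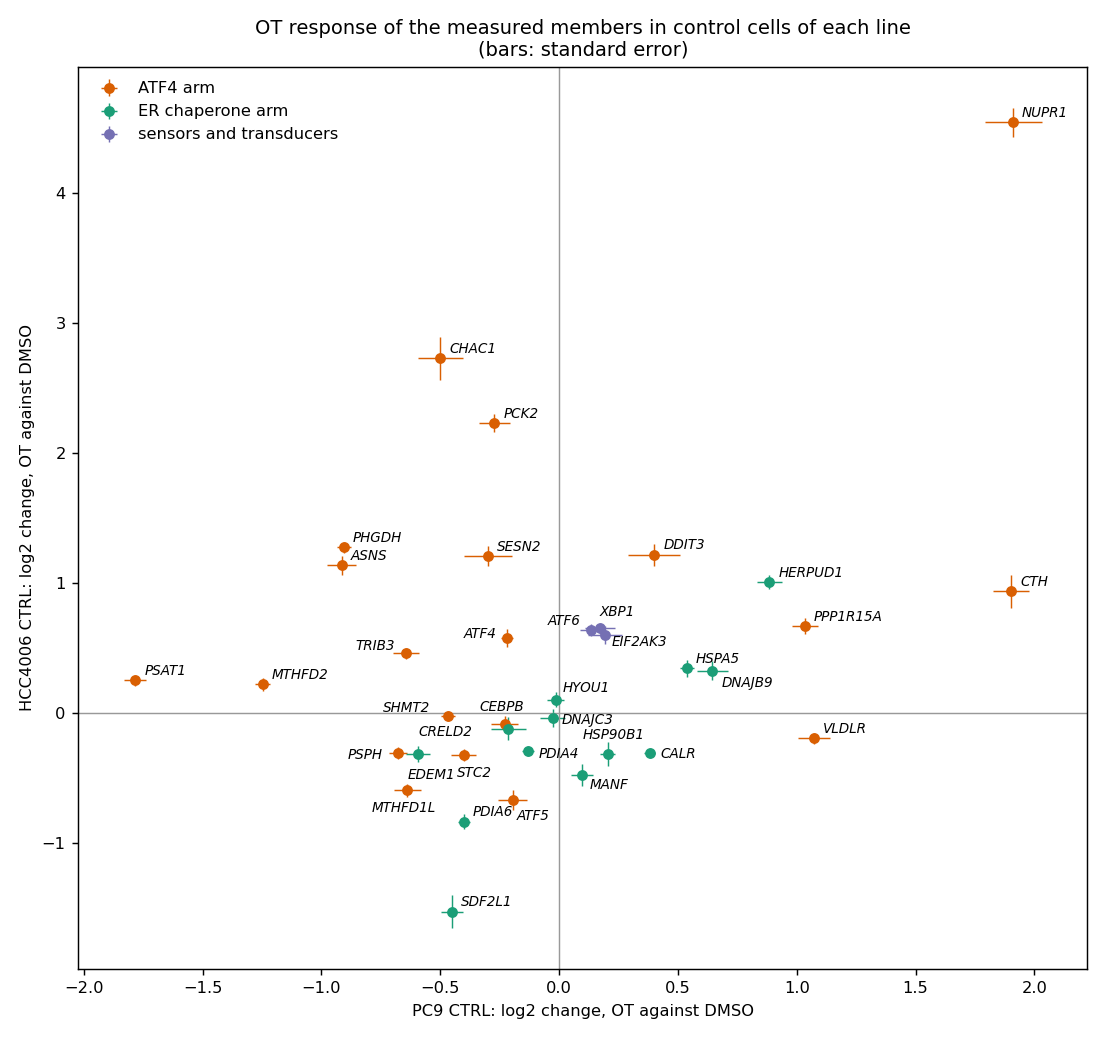
Log2 change with OT against DMSO in CTRL cells of the 36 measured members, PC9 on the horizontal axis and HCC4006 on the vertical axis, with bars for standard errors and colours for the ATF4 arm, the ER chaperone arm and the sensors. PCK2, PHGDH and ASNS lie in the upper left quadrant, at 2.23, 1.27 and 1.14 in HCC4006 and -0.27, -0.91 and -0.92 in PC9.

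In HCC4006 most of the ATF4 arm was lower in YAP1 KO than in CTRL cells under DMSO, and the OT response of that arm was larger in YAP1 KO cells. With DMSO, 1 of 20 measured ATF4 arm genes was higher in YAP1 KO than in CTRL cells and 14 were lower, and of 13 ER chaperone genes 0 were higher (also 0 at an unadjusted p under 0.05 by limma) and 2 lower. XBP1 was lower as well, at a mean of 37.3 ± 0.939 FPKM in YAP1 KO cells and 41.6 ± 1.79 FPKM in CTRL cells (adjusted p = 0.0352). The 18 of 36 members called stand beside 17.8% of all genes, 9.20% higher and 8.65% lower. The median difference was -0.28 in the ATF4 arm and -0.031 in the ER chaperone arm, against 0.016 over all genes. Without YAP1 KO DMSO replicate 2 the count called fell to 11, of which 10 were lower. Without CTRL OT replicate 1 the count was 22, with 3 higher and 19 lower. NUPR1 had 6.44, 4.78 and 5.15 FPKM in YAP1 KO cells, against 23.4, 25.5 and 21.01 FPKM in CTRL cells (log2 change -1.92, SE 0.112, adjusted p = 7.37e-07), and all knockout dishes were lower. TRIB3 averaged 32.3 ± 0.867 FPKM in YAP1 KO cells and 44.6 ± 0.299 FPKM in CTRL cells, STC2 29.5 ± 0.253 and 40.7 ± 0.536 FPKM, PPP1R15A 9.87 ± 0.424 and 13.7 ± 0.876 FPKM, and ASNS 24.1 ± 0.720 and 32.4 ± 0.214 FPKM, in the same order. Each of these 4 was lower in YAP1 KO cells, with adjusted p of 3.33e-05, 4.86e-05, 0.000806 and 0.00245 by limma. CHAC1 was low in both, at 1.03, 1.33 and 1.83 FPKM in YAP1 KO cells and 3.71, 2.5 and 1.81 FPKM in CTRL cells. Its groups overlapped, and its call (adjusted p = 0.0275) was lost without CTRL DMSO replicate 1 or 2 or YAP1 KO DMSO replicate 1 or 2, with adjusted p between 0.0632 and 0.112. CEBPB was the exception, with 18.3, 19.2 and 19.5 FPKM in YAP1 KO cells, against 13.4, 14.5 and 15.0 FPKM in CTRL cells (log2 change 0.39, SE 0.06, adjusted p = 0.00105).

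Within HCC4006 YAP1 KO cells OT raised 15 of 20 measured ATF4 arm genes and lowered 2, and raised 2 and lowered 8 of 13 ER chaperone genes. All 3 sensors rose. The 30 of 36 members called are near the 82.8% of all genes, 46.4% higher and 36.5% lower. The arm medians were 0.59 and -0.31, against 0.11 over all genes, 0.89 apart, and without CTH the ATF4 arm had 14 higher and 2 lower of 19. With equal FPKM sums the all-gene median was 0.28 and the ER chaperone arm had 3 higher and 5 lower, and with median-of-ratios scaling the all-gene median was -0.032 and the ATF4 arm had 14 higher and 5 lower. NUPR1 reached 708, 731 and 713 FPKM with OT, against 6.44, 4.78 and 5.15 FPKM with DMSO (log2 change 6.81, SE 0.112, adjusted p = 1.19e-13). CHAC1 reached 41.8, 44.5 and 37.1 FPKM with OT, against 1.03, 1.33 and 1.83 FPKM with DMSO (log2 change 4.14, SE 0.165, adjusted p = 1.81e-10). Both genes were higher in every OT dish than in any DMSO dish. PCK2 averaged 36.5 ± 0.872 and 5.19 ± 0.350 FPKM with OT and DMSO, DDIT3 69.4 ± 5.72 and 18.2 ± 0.529 FPKM, PHGDH 55.1 ± 1.58 and 14.6 ± 0.235 FPKM, and HERPUD1 47.9 ± 0.840 and 15.5 ± 0.340 FPKM, and each rose. SDF2L1 fell to 5.71, 8.08 and 5.26 FPKM with OT, against 27.9, 28.9 and 30.0 FPKM with DMSO (log2 change -2.05, SE 0.125, adjusted p = 1.04e-08), and PDIA6 to 55.4, 55.9 and 58.4 FPKM with OT, against 124, 118 and 118 FPKM with DMSO (log2 change -1.07, SE 0.056, adjusted p = 2.3e-09). All OT dishes were the lower ones. MANF, MTHFD1L, CALR and ATF5 fell by 0.74, 0.72, 0.58 and 0.56 on the log2 scale.

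The difference between these responses, OT in YAP1 KO cells minus OT in CTRL cells, was tested as an interaction that draws on all 4 HCC4006 groups and so shares its libraries with the comparisons above. Of the ATF4 arm 12 of 20 measured genes responded more positively in YAP1 KO cells and 0 less, with 1 less at an unadjusted p under 0.05 by limma. Of the ER chaperone arm 1 of 13 was higher (HERPUD1, by 0.56) and 4 were lower. Of the 3 sensors XBP1 responded more in YAP1 KO cells, by 0.56 (adjusted p = 9.43e-05). The 18 of 36 members called stand beside 18.6% of all genes, 10.5% higher and 8.18% lower. Without CTRL OT replicate 1 the members called were 22, of which 14 were higher and 8 lower, against 14 and 4 with it. The arm medians were 0.32 and -0.21, against 0.037 over all genes. NUPR1 differed by 2.26 (SE 0.159, adjusted p = 2.86e-06), CHAC1 by 1.41 (SE 0.234, adjusted p = 0.00137) and DDIT3 by 0.65 (SE 0.12, adjusted p = 0.00271). STC2 fell with OT in CTRL cells and rose in YAP1 KO cells, where it averaged 37.0 ± 0.852 FPKM with OT and 29.5 ± 0.253 FPKM with DMSO, and the difference was 0.64 (adjusted p = 3.85e-05). PHGDH differed by 0.57 (adjusted p = 3.29e-05). On the chaperone side HYOU1, HSPA5, CALR and PDIA4 had responses lower in YAP1 KO cells by 0.40, 0.38, 0.28 and 0.21, with adjusted p of 0.00533, 0.0149, 0.0058 and 0.0204. The PDIA4 call was lost without YAP1 KO OT replicate 1 or 2 (adjusted p = 0.051 and 0.0556). HSPA5, which rose with OT in CTRL cells, had 138, 137 and 142 FPKM with OT in YAP1 KO cells, against 141, 145 and 142 FPKM with DMSO, and those groups overlapped.

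Under OT the ATF4 arm was divided between HCC4006 YAP1 KO and CTRL cells, while more chaperones were lower than higher in YAP1 KO cells. Of the ATF4 arm 8 of 20 measured genes were higher in YAP1 KO cells and 5 lower, and of the ER chaperone arm 1 of 13 was higher and 6 were lower. The 21 of 36 members called stand beside 43.6% of all genes, 27.2% higher and 16.4% lower. Without CTRL OT replicate 1 the members called were 23, with 9 higher and 14 lower, against 10 and 11 with it. The arm medians were 0.12 and -0.22, against 0.059 over all genes, 0.34 apart, and 0.40 apart without CTRL OT replicate 1. ATF4 averaged 379.8 ± 6.92 FPKM in YAP1 KO cells and 361 ± 41.6 FPKM in CTRL cells and did not pass (adjusted p = 0.364). ASNS likewise averaged 72.5 ± 2.80 and 72.8 ± 9.05 FPKM in the same order, with an interval for the log2 difference of -0.16 to 0.16. CHAC1 was higher in YAP1 KO cells, at 41.8, 44.5 and 37.1 FPKM, against 23.2, 24.4 and 20.9 FPKM in CTRL cells (log2 change 0.82, SE 0.165, adjusted p = 0.00184). XBP1 was higher too, at 86.9, 86.8 and 88.5 FPKM in YAP1 KO cells, against 62.6, 68.4 and 66.4 FPKM in CTRL cells (log2 change 0.41, SE 0.0443, adjusted p = 2.02e-05), as were CEBPB, PSAT1 and PSPH, by 0.38, 0.32 and 0.31. NUPR1 averaged 717 ± 12.3 FPKM in YAP1 KO cells and 570.3 ± 82.4 FPKM in CTRL cells (adjusted p = 0.0276), but without CTRL OT replicate 1 the log2 difference was 0.22 with adjusted p = 0.0891, and the call was also lost without any 1 of the 3 YAP1 KO OT dishes (adjusted p between 0.0582 and 0.0732). HSPA5 was lower, at 138, 137 and 142 FPKM in YAP1 KO cells, against 156, 191 and 192 FPKM in CTRL cells (log2 change -0.36, SE 0.0666, adjusted p = 0.001), and so was HYOU1, at 12.1, 12.4 and 11.9 FPKM in YAP1 KO cells, against 19.4, 17.2 and 16.0 FPKM in CTRL cells (log2 change -0.50, SE 0.0577, adjusted p = 3.37e-05). In both genes every knockout dish was the lower. PPP1R15A, PDIA6 and CALR were lower by 0.49, 0.42 and 0.39 on the log2 scale. CTH was lower by 0.83, but it passed the filter mainly through the CTRL cells, reaching 1 FPKM in 1 YAP1 KO and 3 CTRL libraries with OT, so its fall is no independent result.

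**Figure D4:**
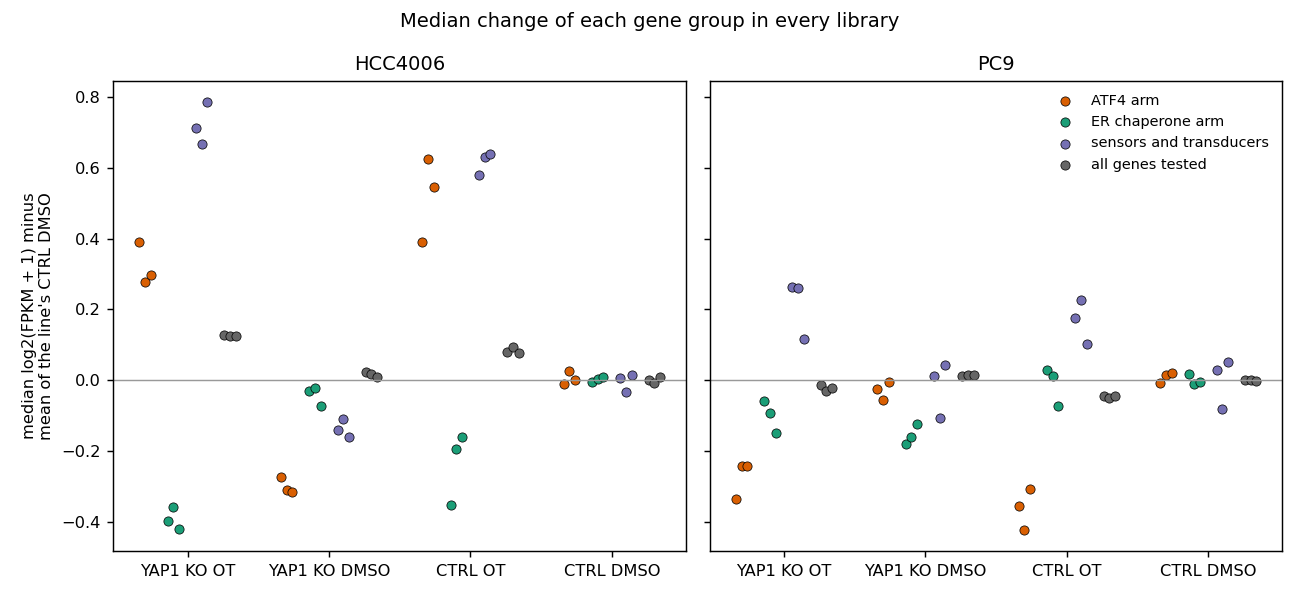
Median log2 difference from the mean of the line's CTRL DMSO dishes over the ATF4 arm, the ER chaperone arm, the sensors and all genes tested, 1 point per dish, HCC4006 left and PC9 right. In HCC4006 CTRL cells with OT the ATF4 arm lay at 0.39, 0.62 and 0.55 and the ER chaperone arm at -0.35, -0.19 and -0.16.

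Under DMSO the ER chaperones of PC9 that passed the test were lower in YAP1 KO than in CTRL cells, and the ATF4 arm was divided. Of the ER chaperone arm 0 of 13 genes were higher in YAP1 KO cells (also 0 at an unadjusted p under 0.05 by limma) and 8 lower, and of the ATF4 arm 5 of 20 measured genes were higher and 4 lower. The 17 of 36 members called are near the 39.9% of all genes, 19.8% higher and 20.0% lower, and the medians were -0.14 in the ER chaperone arm and -0.027 in the ATF4 arm, against 0.013 over all genes. HYOU1 had 19.3, 18.8 and 18.4 FPKM in YAP1 KO cells, against 26.7, 26.7 and 26.2 FPKM in CTRL cells (log2 change -0.48, SE 0.0351, adjusted p = 8.65e-07), and PDIA4 had 80.4, 81.8 and 79.4 FPKM in YAP1 KO cells, against 97.2, 95.2 and 93.1 FPKM in CTRL cells (log2 change -0.24, SE 0.0245, adjusted p = 1.29e-05). Both were lower in every knockout dish. DNAJB9 was lower by 0.25 and CRELD2 by 0.20, the CRELD2 call (adjusted p = 0.0437) being lost without any 1 of PC9 CTRL DMSO replicates 1, 2 and 3, YAP1 KO DMSO replicates 1 and 2 or CTRL OT replicate 3. In the ATF4 arm CTH had 2.06, 2.21 and 1.74 FPKM in YAP1 KO cells, against 6.31, 6.83 and 7.11 FPKM in CTRL cells (log2 change -1.37, SE 0.0753, adjusted p = 7.89e-08), and ASNS was lower by 0.25 (adjusted p = 0.0051). STC2 was the member most raised, with 19.4, 20.2 and 19.3 FPKM in YAP1 KO cells, against 6.49, 6.89 and 7.37 FPKM in CTRL cells (log2 change 1.38, SE 0.0522, adjusted p = 4.63e-09), whereas in HCC4006 it was lower in YAP1 KO cells. NUPR1 and SHMT2 also had opposite signs in the lines, and these differences between lines were not tested. MTHFD1L averaged 24.7 ± 0.605 FPKM in YAP1 KO cells and 19.4 ± 1.39 FPKM in CTRL cells and SHMT2 64.9 ± 1.40 and 60.0 ± 1.21 FPKM, both higher (adjusted p = 0.000528 and 0.00948 by limma). NUPR1 and PSPH were higher by 0.39 and 0.14 (adjusted p = 0.021 and 0.0116). The NUPR1 call was lost without PC9 CTRL DMSO replicate 1 or 2 or YAP1 KO DMSO replicate 1 or 2 (adjusted p between 0.0561 and 0.0771), and the PSPH call without YAP1 KO DMSO replicate 2 (adjusted p = 0.0518).

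In PC9 YAP1 KO cells OT again lowered more genes of the ATF4 arm than it raised. It raised 5 of 20 measured ATF4 arm genes and lowered 12, and raised 7 and lowered 5 of 13 ER chaperone genes, and all 3 sensors rose. The 32 of 36 members called stand beside 78.3% of all genes, 36.9% higher and 41.4% lower. The arm medians were -0.28 and 0.14, against -0.024 over all genes, -0.41 apart, and without CHAC1 the ATF4 arm had 5 higher and 11 lower of 19. With equal FPKM sums the ATF4 arm had 6 higher and 10 lower with a median of -0.18, against 0.062 over all genes. With median-of-ratios scaling that arm had 6 higher and 12 lower. PSAT1 fell to 10.6, 11.8 and 12.3 FPKM with OT, against 72.8, 71.5 and 69.0 FPKM with DMSO (log2 change -2.52, SE 0.0459, adjusted p = 2.88e-13), the lowest change of any member in either line. MTHFD2 fell to 18.4, 18.2 and 18.5 FPKM with OT, against 53.1, 52.7 and 53.9 FPKM with DMSO (log2 change -1.49, SE 0.0331, adjusted p = 1.58e-12). PHGDH, STC2, ASNS and MTHFD1L fell by 1.04, 1.00, 0.98 and 0.88 on the log2 scale. NUPR1 rose, with 36.8, 35.0 and 35.6 FPKM in OT dishes, against 5.74, 6.04 and 4.85 FPKM in DMSO dishes (log2 change 2.49, SE 0.12, adjusted p = 1.39e-09), and HERPUD1 rose, with 22.1, 21.2 and 21.7 FPKM in OT dishes, against 8.40, 8.42 and 9.21 FPKM in DMSO dishes (log2 change 1.23, SE 0.0536, adjusted p = 5.41e-10). CTH, PPP1R15A, VLDLR and DDIT3 rose by 1.48, 1.14, 0.88 and 0.68. None of these genes had overlapping groups.

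The interaction in PC9 had no common direction within either arm as a whole, but without further scaling the ATF4 arm divided by role. Of 7 regulators 4 responded more positively in YAP1 KO cells and 0 less (also 0 at an unadjusted p under 0.05 by limma). Of 9 measured enzymes 0 responded more (also 0 unadjusted) and 5 less. The regulators had a median of 0.28 and the enzymes of -0.13. Of the ATF4 arm 4 of 20 measured genes responded more positively to OT in YAP1 KO than in CTRL cells and 6 less, and of the ER chaperone arm 2 of 13 responded more and 3 less. With equal FPKM sums the ER chaperone split was 4 and 1, and with median-of-ratios scaling 1 and 3. The ATF4 arm split was 4 and 4 with equal FPKM sums and 3 and 6 with median-of-ratios scaling. Counts by role were not made under either scaling. The 15 of 36 members called stand beside 27.0% of all genes, 13.2% higher and 13.8% lower, and the count was 9 when replicate 2 of PC9 CTRL OT, or replicate 3 of YAP1 KO with either OT or DMSO, was left out. The arm medians were -0.046 and 0.019, against 0.014 over all genes. PSAT1 differed by -0.74 (SE 0.0649, adjusted p = 9.53e-06) and STC2 by -0.60 (SE 0.0738, adjusted p = 0.000112), so both fell further in YAP1 KO cells. CEBPB, HERPUD1 and TRIB3 responded more in YAP1 KO cells, by 0.36, 0.35 and 0.33, with adjusted p of 0.00686, 0.00556 and 0.00754. The calls of NUPR1 (0.58, adjusted p = 0.0242), HYOU1 (0.15, adjusted p = 0.0376), MTHFD1L (-0.24, adjusted p = 0.0421) and DNAJB9 (-0.27, adjusted p = 0.0483) depended on single dishes. The NUPR1 call was lost without CTRL DMSO replicate 3, CTRL OT replicate 1 or 2 or YAP1 KO DMSO replicate 3 (adjusted p up to 0.0576). The HYOU1 call held only when the dish left out was CTRL OT replicate 1 or 2, or replicate 1 of YAP1 KO with either OT or DMSO (otherwise adjusted p up to 0.0863). The MTHFD1L call held only when it was CTRL DMSO replicate 1 or YAP1 KO OT replicate 2 (otherwise up to 0.0962), and the DNAJB9 call only when it was replicate 3 of CTRL with DMSO, or in YAP1 KO cells replicate 2 with DMSO or replicate 1 with OT (otherwise up to 0.103). The replicate block ended the MTHFD1L call (adjusted p = 0.0576). CTH differed by -0.43 (adjusted p = 0.0117), but by -0.21 with a pseudocount of 0.1 (adjusted p = 0.273).

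Under OT, 7 of 20 measured ATF4 arm genes were higher in PC9 YAP1 KO than in CTRL cells and 6 lower, and of the ER chaperone arm 1 of 13 was higher and 7 were lower. With equal FPKM sums the ATF4 arm had 10 higher and 6 lower, and with median-of-ratios scaling 5 and 6. In the same order the ER chaperone arm had 1 higher and 6 lower, and 1 and 9. Counts by role were not made under these scalings. The 22 of 36 members called stand beside 53.7% of all genes, 28.5% higher and 25.2% lower, with medians of 0.078 and -0.15, against 0.023 over all genes. By role, 5 of 7 regulators were higher and 0 lower (also 0 lower at an unadjusted p under 0.05 by limma). Of 9 measured enzymes 1 was higher and 5 were lower. NUPR1 had 36.8, 35.0 and 35.6 FPKM in YAP1 KO cells, against 15.7, 15.3 and 22.8 FPKM in CTRL cells (log2 change 0.98, SE 0.12, adjusted p = 3.03e-05), and STC2 8.79, 9.58 and 9.59 FPKM in YAP1 KO cells, against 5.20, 4.71 and 5.06 FPKM in CTRL cells (log2 change 0.78, SE 0.0522, adjusted p = 1.78e-07). HERPUD1, CEBPB, DDIT3 and TRIB3 were higher by 0.40, 0.38, 0.35 and 0.23, and the DDIT3 call was lost without PC9 CTRL OT replicate 2 or YAP1 KO OT replicate 1 (adjusted p = 0.0727 and 0.0578). CTH had 7.81, 7.80 and 6.45 FPKM in YAP1 KO cells, against 27.9, 27.1 and 28.8 FPKM in CTRL cells (log2 change -1.80, SE 0.0753, adjusted p = 5.29e-09), and PSAT1 10.6, 11.8 and 12.3 FPKM in YAP1 KO cells, against 19.8, 20.01 and 21.1 FPKM in CTRL cells (log2 change -0.76, SE 0.0459, adjusted p = 7.59e-08). Both genes were lower in every knockout dish. DNAJB9, MTHFD2, VLDLR and PDIA4 were lower by 0.52, 0.37, 0.36 and 0.34 on the log2 scale. PDIA4 was lower in YAP1 KO cells under OT in both lines, at -0.24 in HCC4006 and -0.34 in PC9. HYOU1, PDIA6, CALR and HSPA5 were also lower in every knockout dish of both lines, and HERPUD1 was higher in every one. HSPA5 was not called in PC9, where its difference was small. The share of all genes without overlap in both lines was not counted. In PC9 the YAP1 KO and CTRL means were 20.8 and 26.3 FPKM for HYOU1 and 88.8 and 102.6 FPKM for PDIA6. They were 452 and 500 FPKM for CALR and 189 and 197.9 FPKM for HSPA5.

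**Figure D5:**
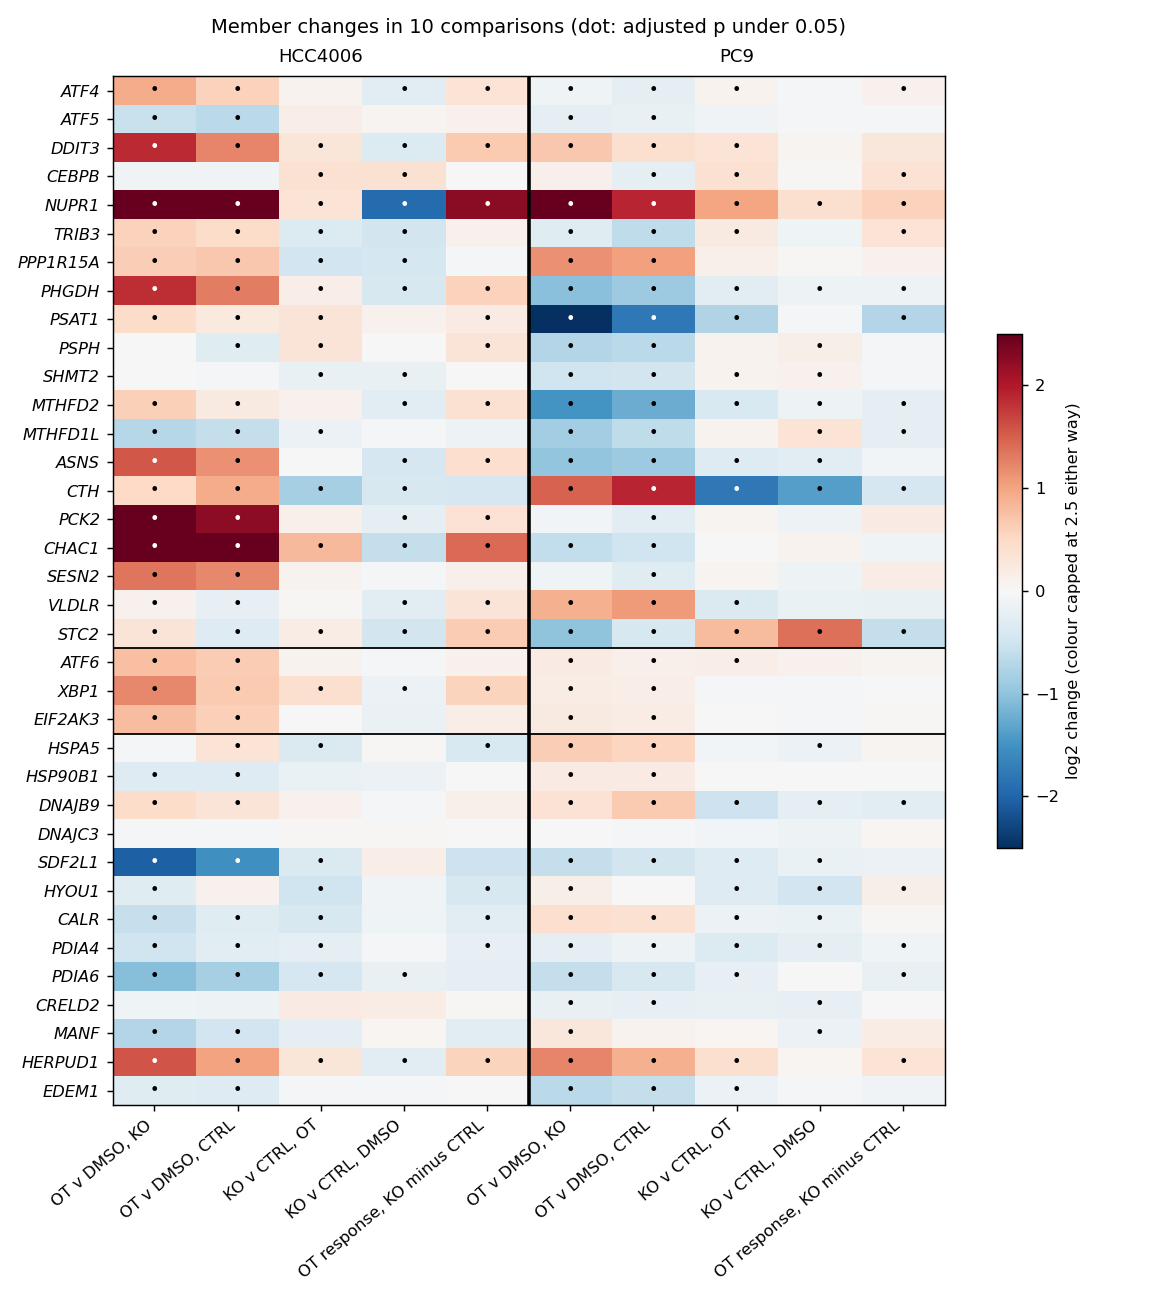
Log2 change of each measured member in the within-line comparisons, with the ATF4 arm above, the sensors in the middle and the ER chaperone arm below, and a dot where the adjusted p was under 0.05. Red is higher, blue is lower, and the colour stops at 2.5 in size. Of the 9 measured enzymes 5 run in opposite directions with OT in CTRL cells of the lines (PHGDH, PSAT1, MTHFD2, ASNS and PCK2), for example PHGDH at 1.27 in HCC4006 CTRL cells and -0.91 in PC9 CTRL cells.

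Genes of the same pathways that are not among the 38 were counted for comparison. Of the other ATF4 and amino acid response genes, OT in CTRL cells raised 15 and lowered 5 of 24 measured in HCC4006, with a median of 0.37, and raised 8 and lowered 11 of 23 in PC9, with a median of 0.021. Over all genes these comparisons called 45.0% higher and 36.6% lower in HCC4006 and 32.0% and 40.9% in PC9, which also stand beside the OT counts of the other lists below. In HCC4006 KLHL24, ATF3 and ADM2 rose most, by 2.54, 2.47 and 2.07, and NARS, GDF15 and SLC38A2 were the lowest called, at -0.36, -0.49 and -0.54. ADM2 reached 1 FPKM in 6 of 6 OT and 0 of 6 DMSO libraries of HCC4006, so it passed through the OT libraries and had to differ. In PC9 KLHL24 also led, at 1.74, followed by JDP2 and ATF3 at 1.03 and 1.01 (ATF3 reached 1 FPKM in 6 OT and 1 DMSO libraries there), and the transaminase GPT2 was lowest at -0.90, with XPOT and CEBPG at -0.77 and -0.68. In the HCC4006 interaction 11 of 24 of these genes responded more in YAP1 KO cells and 0 less (1 less at an unadjusted p under 0.05 by limma), and 6 more and 7 less of 23 in PC9. The interaction called 10.5% of all genes higher and 8.18% lower in HCC4006, and 13.2% and 13.8% in PC9.

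Most of the other serine, glycine and folate genes fell in both lines, 13 of 20 lower and 5 higher in HCC4006 CTRL cells with a median of -0.63, and 16 of 20 lower and 4 higher in PC9 CTRL cells with a median of -0.46. The nucleotide enzyme TYMS, which belongs to this list and makes thymidylate for DNA synthesis, averaged 3.48 ± 0.139 FPKM in OT and 67.0 ± 2.42 FPKM in DMSO cultures (log2 change -3.92, adjusted p = 7.14e-13) in HCC4006 CTRL cells, and 48.2 ± 1.29 FPKM in OT and 155 ± 5.30 FPKM in DMSO cultures (log2 change -1.67, adjusted p = 3.61e-12) in PC9 CTRL cells. GCSH was also low in HCC4006, at -1.88, and SLC19A1 and SLC25A32 in PC9, at -1.15 and -1.03. FOLR1 rose in both lines, by 1.55 in HCC4006 and 1.76 in PC9. SLC1A4 in HCC4006 and AMT in PC9 also rose, by 1.07 and 0.32.

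Other ER folding and degradation genes were divided, 12 higher and 16 lower of 37 in HCC4006 CTRL cells and 16 higher and 11 lower of 36 in PC9 CTRL cells. WFS1 and OS9 rose in both lines, by 1.88 and 1.1 in HCC4006 and 0.64 and 0.61 in PC9, and HSPA13 and TXNDC5 fell in both, at -0.82 and -0.92 in HCC4006 and -0.58 and -0.50 in PC9. MBTPS1, the protease that activates ATF6, rose by 1.17 in HCC4006, where DERL3 was lowest at -1.36. DERL3 reached 1 FPKM in 0 of 6 OT and 6 of 6 DMSO libraries, so it too had to differ. In PC9 CREB3L2 rose by 0.99 and SSR1 changed by -0.39. Of the eIF2 kinases and the eIF2 and eIF2B subunits, 4 were higher and 7 lower of 13 in HCC4006, and 2 higher and 9 lower of 13 in PC9. The heme-regulated kinase EIF2AK1 rose by 0.55 in HCC4006 and 0.25 in PC9, and the amino acid sensing kinase EIF2AK4 by 0.35 in HCC4006. EIF2B3 and EIF2S1 fell in both lines, at -1.67 and -1.17 in HCC4006 and -1.16 and -0.70 in PC9.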

How the data were processed

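RNA from 24 dishes (8 groups of 3) was sequenced from stranded mRNA libraries. The authors deposited 1 table of FPKM per gene, made with STAR 2.5.1b and Cufflinks 2.2.1 on hg19 per the submitters' processing notes, which also name DESeq2 1.10.1; the annotation and the strand setting are not given in the sources used here. A count model was not run, because FPKM values are no counts, and total depth is unknown. Relative depth was read from the lowest values of each library.

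The deposited FPKM were taken as log2(FPKM + 1), which understates the change of low genes. Genes at 1 FPKM or more in at least 3 of the 12 libraries of a line were fitted with limma 3.58.1 in R 4.3.3 (trend, 4 groups, 8 residual degrees of freedom), and p-values were adjusted over all genes tested by Benjamini-Hochberg; genes past the filter in both lines were fitted over all 24 libraries for the differences between lines. The fit was tested on simulated data. The arms are described by counts and medians, without a test. Named members were up to 6 called at each end of a within-line comparison, up to 5 at each end of a difference between responses, and ATF4, DDIT3, ASNS, PSAT1, PHGDH, HSPA5 and XBP1 with OT in CTRL cells, plus up to 3 called genes at each end of each related list; members named beyond these were chosen after their values were seen. The members and lists were chosen with earlier results of these data known. Alternatives were pseudocounts of 0.1 and 0.01, no filter and a filter at 5 FPKM, equal FPKM sums, median-of-ratios scaling, robust moderation, a replicate block, 1 fit of all libraries, means for medians, sensors counted with the chaperones, and leaving out each library. Promoter windows came from RefSeq (GRCh38.p14), found for 34 of the 38 genes; overlaps and pseudogenes came from a GENCODE annotation of GRCh38, and no coordinate was converted between builds. Some genes of the related lists are not reported here.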

Additional observations from a re-analysis of the deposited data

Results flagged for a closer look

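Differences between the OT responses of groups were tested directly for every measured member, as interaction terms within a line or as the difference between the lines, and all members past an adjusted p of 0.05 by limma are given with the log2 difference. In HCC4006 18 of 36 measured members, beside 18.6% of all genes, had an OT response that differed between YAP1 KO and CTRL cells. It was higher in YAP1 KO cells by 2.26 for NUPR1, 1.41 for CHAC1, 0.65 for DDIT3, 0.64 for STC2, 0.57 for PHGDH, 0.56 for HERPUD1, 0.56 for XBP1, 0.41 for ASNS, 0.38 for MTHFD2, 0.37 for PCK2, 0.34 for ATF4, 0.33 for PSPH, 0.31 for VLDLR and 0.21 for PSAT1. It was lower there, with -0.40 for HYOU1, -0.38 for HSPA5, -0.28 for CALR and -0.21 for PDIA4. The largest adjusted p among these was 0.042.

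In PC9 15 of 36 measured members, beside 27.0% of all genes, had an OT response that differed between YAP1 KO and CTRL cells. On the higher side the differences were 0.58 for NUPR1, 0.36 for CEBPB, 0.35 for HERPUD1, 0.33 for TRIB3, 0.15 for HYOU1 and 0.11 for ATF4. On the lower side the differences were -0.74 for PSAT1, -0.60 for STC2, -0.43 for CTH, -0.27 for DNAJB9, -0.24 for MTHFD1L, -0.24 for MTHFD2, -0.19 for PDIA6, -0.13 for PHGDH and -0.11 for PDIA4. The largest adjusted p among these was 0.0483. PSAT1, STC2, PHGDH and MTHFD2 stood on the higher side in HCC4006 and on the lower side in PC9, and HYOU1 the other way round.

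Between the lines 29 of 36 measured members differed in their OT response in CTRL cells, as HCC4006 minus PC9. Of all genes tested in both lines 65.2% differed. The positive differences were 3.23 for CHAC1, 2.64 for NUPR1, 2.5 for PCK2, 2.18 for PHGDH, 2.05 for ASNS, 2.03 for PSAT1, 1.51 for SESN2, 1.47 for MTHFD2, 1.1 for TRIB3, 0.82 for DDIT3, 0.80 for ATF4, 0.50 for ATF6, 0.48 for XBP1, 0.44 for SHMT2, 0.41 for EIF2AK3, 0.37 for PSPH and 0.28 for EDEM1. The negative differences were -1.27 for VLDLR, -1.08 for SDF2L1, -0.97 for CTH, -0.69 for CALR, -0.57 for MANF, -0.52 for HSP90B1, -0.47 for ATF5, -0.44 for PDIA6, -0.37 for PPP1R15A, -0.32 for DNAJB9, -0.20 for HSPA5 and -0.16 for PDIA4. The largest adjusted p among these was 0.0284. CHAC1 passed the PC9 filter through DMSO libraries alone, and CTH passed the HCC4006 filter through OT libraries alone. The direction of those changes was fixed by the filter, so neither difference is an independent result. With a pseudocount of 0.1 the CTH difference was not called (adjusted p = 0.191 by limma). The counts and medians between the lines include both genes.

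In 7 cases the effect of YAP1 KO was called in opposite directions in the lines with no overlap of dishes in either, and that difference was not tested. How many of all genes met the same rule was not counted, so the number of cases is no result about these genes. YAP1 KO against CTRL called 17.8% of all genes in HCC4006 and 39.9% in PC9 under DMSO, and 43.6% and 53.7% under OT. Under DMSO, NUPR1 differed by -1.92 in HCC4006 and 0.39 in PC9, STC2 by -0.45 and 1.38, and SHMT2 by -0.19 and 0.11. Under OT, TRIB3 differed by -0.34 in HCC4006 and 0.23 in PC9, PSAT1 by 0.32 and -0.76, PHGDH by 0.16 and -0.25, and SHMT2 by -0.18 and 0.091.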

How the results depend on the processing

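Of 128 pairs of a named member and a comparison, 113 had the same direction and call in every alternative run, 15 lost the call in at least 1 and 0 changed sign. Calls lost without 1 library are given above. Without a filter the calls of XBP1 (OT in PC9 CTRL cells), CRELD2 (PC9, DMSO), CHAC1 (HCC4006, DMSO) and NUPR1 (HCC4006, OT) were lost. So were NUPR1, DNAJB9 and MTHFD1L in the PC9 interaction (adjusted p up to 0.0805 by limma). There equal FPKM sums ended DNAJB9 and MTHFD1L, and lower pseudocounts DNAJB9 and CTH. A fit of all 24 libraries ended HYOU1, DNAJB9 and CTH there and CRELD2. Median-of-ratios scaling ended HYOU1 there and NUPR1 in HCC4006 under OT. The number of members called stayed within 1.5 times the reported number in the alternatives run, except in the PC9 interaction, where a fit of all 24 libraries called 9 in place of 15 and leaving out 1 library gave 9 to 13, and in HCC4006 YAP1 KO against CTRL under DMSO, where leaving out 1 library gave 11 to 22. In the HCC4006 interaction the range over all alternatives was 15 to 22, the highest without CTRL OT replicate 1. The difference between the arm medians (ATF4 minus ER chaperone) had the same sign in all alternatives but moved by more than the spread between dishes in the following. With the sensors counted in the ER chaperone arm it was 0.60 for OT in HCC4006 CTRL cells, 0.78 for OT in HCC4006 YAP1 KO cells, 0.22 for HCC4006 YAP1 KO against CTRL under OT, 0.33 for the HCC4006 interaction, -0.47 for OT in PC9 CTRL and also in PC9 YAP1 KO cells, 0.19 for PC9 YAP1 KO against CTRL under OT and 0.89 between the lines. With means in place of medians it was 0.95, 1.45 and 0.23 for the first 3 of these, -0.27 for HCC4006 YAP1 KO against CTRL under DMSO, -0.22 and -0.26 for OT in PC9 CTRL and YAP1 KO cells, 0.15 and 0.12 for PC9 YAP1 KO against CTRL with DMSO and with OT, -0.038 for the PC9 interaction and 1.18 between the lines. With a pseudocount of 0.1 it was -0.45 and -0.44 for OT in PC9 CTRL and YAP1 KO cells, 0.25 for PC9 YAP1 KO against CTRL under OT and 0.97 for OT in HCC4006 YAP1 KO cells, and with 0.01 it was -0.46, -0.45, 0.26 and 0.97. Without a filter it was -0.28 and -0.38 for OT in PC9 CTRL and YAP1 KO cells and 0.87 for OT in HCC4006 CTRL cells. With a filter at 5 FPKM it was -0.44 and -0.48 for OT in PC9 CTRL and YAP1 KO cells, 0.25 for PC9 YAP1 KO against CTRL under OT, 0.67 for OT in HCC4006 CTRL cells and 1.13 between the lines. Leaving out 1 library gave 0.76 to 0.81 for OT in HCC4006 CTRL cells, 0.87 to 0.92 in HCC4006 YAP1 KO cells, -0.26 to -0.21 and 0.27 to 0.40 for HCC4006 YAP1 KO against CTRL with DMSO and with OT, -0.42 to -0.28 for OT in PC9 CTRL cells, -0.45 to -0.38 in PC9 YAP1 KO cells, 0.20 to 0.25 for PC9 YAP1 KO against CTRL with OT, -0.090 to -0.0052 for the PC9 interaction and 0.95 to 1.05 between the lines. The cause of these moves was not tested. Replicate numbers are shared between groups, but 3 of 18 pairs in PC9 and 5 of 18 in HCC4006 correlated above 0.1 (r between -0.264 and 0.236), so the samples share a number and no established pairing. Same-number pairs were all positive between HCC4006 CTRL DMSO and CTRL OT (0.134, 0.146 and 0.143). They were also all positive between CTRL OT and YAP1 KO DMSO in each line. They were all negative between HCC4006 YAP1 KO DMSO and YAP1 KO OT (-0.113, -0.0927 and -0.15), among others. Whether any groups share a batch was not tested. With the replicate block the members called were 31, 30, 17, 21 and 18 in HCC4006 (OT in CTRL, OT in YAP1 KO, YAP1 KO under DMSO, YAP1 KO under OT, interaction), 33, 32, 17, 23 and 13 in the same PC9 comparisons, 29 between the OT responses of the lines and 27 between the lines under DMSO. Depth was not given, so no limit from counting can be set for the low genes CHAC1, CTH, SESN2 and VLDLR.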

Other observations

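The other serine, glycine and folate genes differed between YAP1 KO and CTRL cells in PC9. Under DMSO 1 of 20 was higher in YAP1 KO cells and 10 were lower, with a median log2 difference of -0.15, and under OT 1 was higher and 12 lower, with a median of -0.24. Over all genes 19.8% were higher and 20.0% lower under DMSO, and 28.5% and 25.2% under OT. The PC9 interaction called 0 of them higher (1 at an unadjusted p under 0.05 by limma) and 9 lower, beside 13.2% and 13.8% of all genes. In HCC4006 the same list had 2 higher and 3 lower under DMSO and 5 higher and 6 lower under OT, beside 9.20% and 8.65% of all genes under DMSO and 27.2% and 16.4% under OT. The other ATF4 and amino acid response genes had 12 of 24 higher and 2 lower in HCC4006 YAP1 KO cells under OT, and 6 higher and 11 lower of 23 in PC9. These comparisons share libraries within a line.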
